A study of Rattus norvegicus with 11 samples.

Results

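Expression of the core transcription factor genes of heart muscle was compared between ventricular myocytes of female and male rats. The genes considered were Nkx2-5, Gata4, Gata6, Mef2a, Mef2c, Mef2d, Hand2, Srf and Tbx20, each taken as the row of the deposited table whose gene symbol equals that name. Of these 9 genes, 8 had a row among the 17257 in the table. Mef2c had none and was not analysed here. The cells were ventricular myocytes isolated on a Langendorff apparatus from wild-type Sprague Dawley rats aged 3 to 4 months, kept on dishes for 45 minutes without treatment and then frozen. There were 5 libraries from females and 6 from males, and the study asked how sex relates to gene expression in these cells. Per the labels each library is a biological replicate.

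These factors form the regulatory core that gives a heart muscle cell its identity. NKX2-5 is a homeodomain protein, GATA4 and GATA6 are zinc finger proteins, TBX20 is a T-box protein and HAND2 is a basic helix-loop-helix protein. SRF and the MEF2 proteins share the MADS box, the domain with which they bind A/T-rich sites named the CArG box and the MEF2 box. They bind one another and share enhancers, so that genes of the sarcomere, of natriuretic peptides and of ion channels often carry sites for several of them. In the adult ventricle they maintain contractile gene expression, and several act in the response to load. Their activity is set in part after translation, by coactivators such as myocardin, by histone deacetylases that bind MEF2, and by kinases.

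The table gave the authors' mean normalized count for each sex, a fold change, a p-value and an adjusted p-value, and no value per library. Its columns name the groups by letter, and B was read as female and A as male because the overall mean weights them 5 to 6. Levels are therefore given without a spread between animals, and which libraries were high or low, or whether the sexes overlapped, cannot be stated for these genes. All fold changes are females over males. A gene was called where the adjusted p in the authors' deposited table was under 0.05. An approximate 95% interval for each log2 fold change was taken from the standard error at which a normal test would return the authors' p-value. Library size factors could be read from the digits of low means and ran from 0.972 to 1.14 in females and from 0.811 to 1.17 in males. The counts rest on bulk RNA, in which fewer cells of a type and less RNA per cell cannot be told apart.

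Of the 8 genes measured, 3 were higher in females, none was lower and 5 were not called. Nkx2-5, Gata4 and Mef2d were the genes that rose. Over all 13346 genes with a mean above 0 in the authors' deposited table, 14.5% were called, 6.71% as higher in females and 7.76% as lower. Well-counted genes were called more often: among the 4665 genes whose means lay between those of the lowest and the highest of the 8 factors, 25.0% were called, 11.3% as higher in females and 13.7% as lower. Other scalings were tried by recentring all log2 fold changes on the median of the cardiomyocyte markers, which lowered them by 0.18, or on the summed counts, which raised them by 0.15. Nkx2-5, Gata4 and Mef2d were higher in females under both, while on the cardiomyocyte markers Mef2a was called lower, which made the split 3 higher and 1 lower. The log2 fold changes of Gata6, Hand2 and Srf were above 0 and those of Mef2a and Tbx20 below 0, without a call, except that Srf stood at -0.0046 on the cardiomyocyte markers and Tbx20 at 0.058 on the summed counts and at 0.019 when recentred on genes of like span. The 8 genes had a median log2 fold change of 0.26, beside -0.027 for the 4665 genes of like mean.

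**Figure D1:**
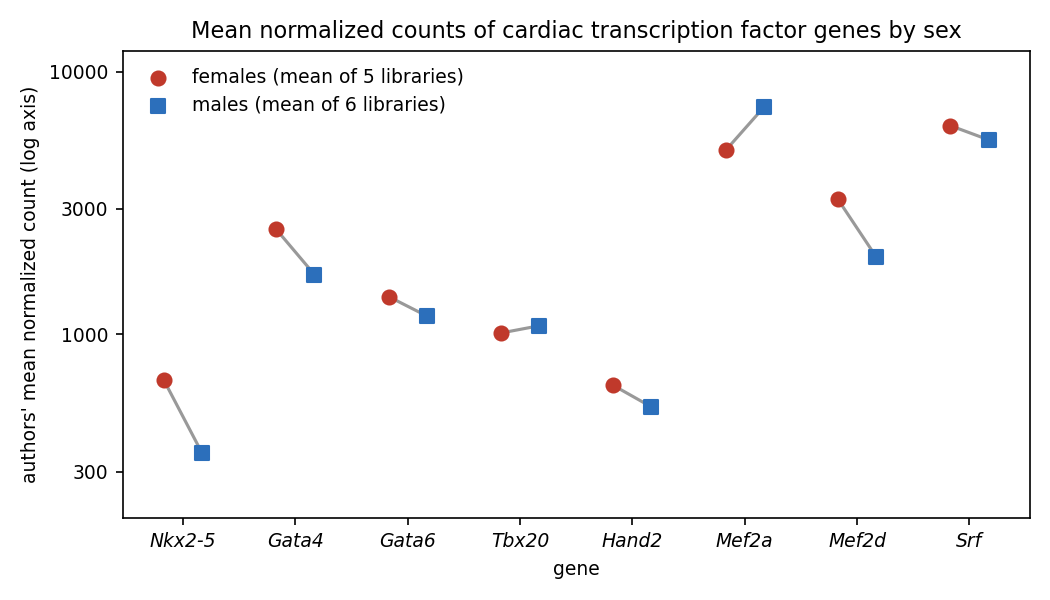
Authors' mean normalized count (log axis) of each measured transcription factor gene in females (circles, mean of 5 libraries) and males (squares, mean of 6 libraries); no spread between libraries was given. The female mean lies above the male mean for 6 genes and below it for Tbx20 and Mef2a, and the counts are not scaled by transcript length, so heights compare the sexes within a gene and not one gene with another.

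Nkx2-5, whose product is among the earliest markers of the cardiac lineage and keeps conduction and contraction genes active in the adult, showed the largest fold of the 8 genes. Its mean in the authors' deposited table was 668 normalized counts in females and 353 in males. This is a fold of 1.89 and a log2 fold change of 0.92, with an approximate 95% interval from 0.48 to 1.37. The adjusted p was 0.0022 in the authors' deposited table. The means correspond to about 3494 reads over the female libraries and about 2091 over the male libraries. Counting error alone would give a standard error of 0.040 on the log2 scale, against 0.23 implied by the authors' p-value, so the implied error was several times the counting error. Nkx2-5 had the fewest reads of the 8 genes. For the other 7 the standard error from counting lay between 0.011 and 0.036 and the implied one between 0.13 and 0.23.

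Of the GATA factors, which bind GATA sites in promoters such as those of natriuretic peptide and troponin genes, Gata4 was called and Gata6 was not. Gata4 had a mean of 2507 normalized counts in females and 1687 in males, a fold of 1.49 with adjusted p = 0.0023 in the authors' deposited table. The approximate 95% interval of its log2 fold change of 0.57 ran from 0.29 to 0.85. Gata6, which acts beside Gata4 in the myocardium and is also active in other tissues, had means of 1391 and 1174 in females and males in the authors' deposited table. Its log2 fold change was 0.25, with an interval from -0.049 to 0.54, and the adjusted p was 0.298 in the authors' deposited table. The interval includes no difference and a fold of up to 1.45. The log2 fold change of Gata4 exceeded that of Gata6 by 0.33. When the standard errors of both genes were added, the largest error that any correlation between them allows, the interval of this difference ran from -0.24 to 0.90, so a difference between the paralogues was not shown. In the RefSeq annotation a long noncoding RNA overlaps the span of Gata4. The sources used here do not state whether reads were counted by strand.

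The MEF2 genes Mef2d and Mef2a had log2 fold changes of opposite sign. Mef2d, which in rodents mediates stress-dependent remodelling of the heart, had means of 3260 normalized counts in females and 1970 in males in the authors' deposited table. Its fold of 1.65 carried the smallest p of the 8 genes in the authors' deposited table, adjusted to 8.4e-05. The interval around its log2 fold change of 0.73 ran from 0.45 to 1.0. Mef2a, whose product in the mouse heart supports mitochondrial and contractile gene expression, pointed the other way, with means of 5011 in females and 7314 in males. Its log2 fold change of -0.55 had a p of 0.0190, which became 0.0953 after adjustment in the authors' deposited table, so Mef2a was not called. Its interval ran from -1.0 to -0.090. The Mef2d count stood at 0.651 times the Mef2a count in females and at 0.269 times in males. The difference between the log2 fold changes of Mef2d and Mef2a was 1.27, and with the standard errors of both genes added its interval ran from 0.54 to 2.0. The pair was compared after both values had been seen.

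The sequence before the start of Mef2d is shown because this gene had the smallest p. It is the RefSeq stretch of 250 bases on the plus strand at chr2:175904082-175904331 of the build GRCr8, with a G and C content of 73.2%:
Mef2d: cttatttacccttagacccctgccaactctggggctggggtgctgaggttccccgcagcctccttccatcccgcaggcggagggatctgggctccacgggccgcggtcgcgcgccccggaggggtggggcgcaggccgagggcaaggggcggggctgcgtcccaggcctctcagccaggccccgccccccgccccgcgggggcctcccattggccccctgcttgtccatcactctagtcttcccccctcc
The stretch was searched on both strands for motifs of these factors, namely the NKX2-5 element AAGTG, the GATA site GATAA, the T-box site AGGTGT, the E-box CANNTG, the MEF2 box and the CArG box. It held none of them, hence no base is in capitals. Windows of the same length were listed for 7 of the 9 genes, all but Gata4 and Mef2c. Of these 7 windows, 2 held an E-box, which 65.5% of all 33469 windows hold. The NKX2-5 element and the GATA site were each in 1 of the 7, that of Hand2, and in 40.6% and 23.5% of all windows. The T-box site was in none of the 7 and in 11.6% of all windows. Some E-boxes overlap an NKX2-5 element, as in Hand2. A match is a run of letters in this window, not a bound site.

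Srf, the MADS-box factor that drives contractile and immediate early genes, was the second most heavily counted of the 8 genes after Mef2a. Its mean was 6224 normalized counts in females and 5497 in males, with a log2 fold change of 0.18 with adjusted p = 0.402 in the authors' deposited table. The interval from -0.072 to 0.43 allows a fold of up to 1.35 and includes no difference. Srf is known to be activated by its own product through CArG boxes, and the window before its start was the only one of the 7 to hold that motif, which 1.5% of all windows hold. The MEF2 box was likewise in 1 of the 7 windows, that of Mef2a, and in 2.96% of all windows. The Srf stretch of 224 bases on the plus strand at chr9:21923826-21924049 (GRCr8) is shown for these sites. A site of 30 bases follows for Mef2a on the minus strand at chr1:130392183-130392212. The last, for Nkx2-5, is on the plus strand at chr10:16848370-16848399 and holds the only motif found in that window. The windows of Mef2a and Nkx2-5 lie within the annotated spans of these genes, which extend further upstream. Capitals mark 2 CArG boxes in Srf, a MEF2 box in Mef2a and an E-box in Nkx2-5:
Srf: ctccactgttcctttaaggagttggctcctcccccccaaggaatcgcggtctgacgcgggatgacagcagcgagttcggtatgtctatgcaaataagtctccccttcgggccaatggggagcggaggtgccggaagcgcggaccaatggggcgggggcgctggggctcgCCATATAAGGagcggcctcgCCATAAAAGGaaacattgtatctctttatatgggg
Mef2a: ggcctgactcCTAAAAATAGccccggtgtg
Nkx2-5: gggagactattcCAAATGtgtcgcggcccc
The CArG boxes of Srf begin 81 and 61 bases before the transcript start used in the RefSeq window. The gene with a MEF2 box in its window had a log2 fold change below 0, and the gene with CArG boxes one above 0, neither of them called.

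Hand2 and Tbx20 were not called. Hand2, needed for growth of the right ventricle in the embryo, had means of 639 normalized counts in females and 529 in males in the authors' deposited table. Its log2 fold change of 0.27 had an interval from -0.060 to 0.61, with adjusted p = 0.309 in the authors' deposited table. Tbx20, required in adult mouse myocytes for normal contractile and ion channel gene expression, had means of 1011 and 1077 in females and males in the authors' deposited table. Its log2 fold change was -0.091, with an interval from -0.46 to 0.27, and the authors' deposited table gave adjusted p = 0.853. This interval spans folds from 0.729 to 1.21. It rests on a p of 0.624 in the authors' deposited table. An error implied from so large a p is uncertain, so the interval excludes no larger fold.

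**Figure D2:**
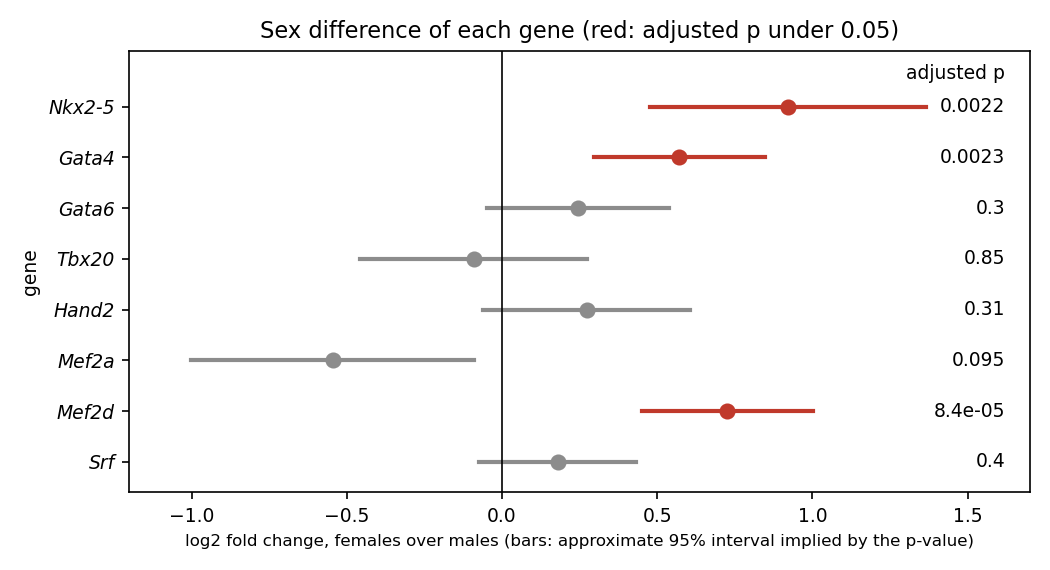
Log2 fold change (females over males) of each measured gene, with bars for the approximate 95% interval implied by the authors' p-value and the authors' adjusted p at the right; red marks an adjusted p under 0.05. Nkx2-5, Gata4 and Mef2d lie to the right of 0 with their whole intervals, and the interval of Mef2a lies to the left of 0 although its adjusted p is 0.095.

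Set among the 4665 genes of like mean, the log2 fold change of Nkx2-5 was reached or exceeded by 24 genes, that of Mef2d by 82 and that of Gata4 by 258, each count including the gene itself. The log2 fold change of Mef2a was as low or lower in 477 genes. Nkx2-5 set the lower edge of this range of means and Mef2a the upper edge. The other genes in the range were thus counted at least as heavily as Nkx2-5, which limits what its rank shows. Of 10518 genes whose mean reached 10 and whose fold change was finite, 10 fell beyond 3 log2 units.

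**Figure D3:**
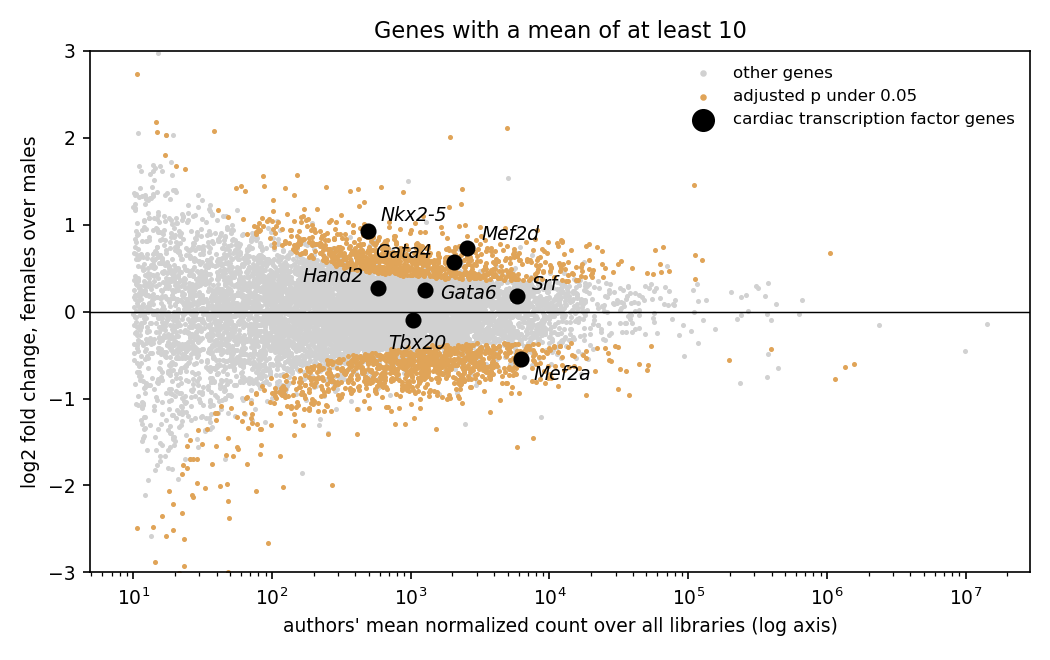
Log2 fold change (females over males) against the authors' mean normalized count over all libraries (log axis) for genes with a mean of at least 10; orange points have an adjusted p under 0.05, black points are the 8 transcription factor genes, and 10 genes beyond 3 log2 units are not drawn. Nkx2-5, Mef2d and Gata4 sit in the upper orange band, Mef2a at the inner border of the lower one, and the other 4 genes in the grey band.

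Other transcription factors of the heart were examined next. Of 24 listed, 21 were measured, of which 4 rose, none fell and 17 were not called. Over all genes 14.5% were called, 6.71% as higher in females. On the cardiomyocyte markers 2 of the listed genes were higher, Tbx5 and Gata5. The median log2 fold change was 0.24, beside -0.0099 over all 12315 genes with a finite fold change. Tbx5, the T-box partner of NKX2-5 and GATA4, had 2657 normalized counts in females and 1706 in males, a fold of 1.56 with adjusted p = 9.4e-04 in the authors' deposited table. Gata5, the third GATA factor of the heart, had 2403 and 1572 in females and males, a fold of 1.53 with adjusted p = 0.0016 in the authors' deposited table. Irx3, an Iroquois homeobox gene of the ventricular conduction system, rose 1.81-fold and Tead3, a TEA domain factor that binds muscle gene promoters, rose 1.60-fold in the authors' deposited table, with adjusted p = 0.0290 and 0.0461. Neither kept its call on the cardiomyocyte markers, with adjusted p = 0.0853 and 0.158 from errors implied by the authors' deposited table, and Irx3 also lost it when recentred on genes of like span (0.0856). Of the GATA genes of the heart, 2 of 3 were thus called, and of the T-box genes Tbx5 was called while Tbx20, Tbx2, Tbx3 and Tbx18 were not; a difference between these genes was not tested.

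Among coactivators and binding partners, 16 of 20 listed genes were measured, 2 rose and none fell. This was a share of calls near the 14.5% over all genes and below the 25.0% among the 4665 genes in the mean range of the core factors. The median log2 fold change was 0.22. On the cardiomyocyte markers the split was 0 higher and 3 lower, and on the summed counts 6 higher and 0 lower. Zfpm1, whose product FOG1 binds GATA factors, had 680 normalized counts in females and 447 in males, a fold of 1.52 with adjusted p = 0.0105 in the authors' deposited table. Crebbp, a histone acetyltransferase, rose 1.38-fold with adjusted p = 0.0214 in the authors' deposited table. Myocd, which encodes myocardin, the muscle coactivator of SRF, had 3313 and 2679 normalized counts in females and males with adjusted p = 0.123 in the authors' deposited table. Zfpm2, for the GATA4 partner FOG2, had 773 and 706 in females and males, with adjusted p = 0.724 in the authors' deposited table. Both were chosen for mention after their values were seen.

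Corepressors moved in both directions. Of 12 listed genes 11 were measured, 2 rose, 2 fell and the median log2 fold change was -0.15. Over all genes 6.71% were called higher in females and 7.76% lower. Among the 4665 genes in the mean range of the core factors these shares were 11.3% and 13.7%. Hdac5, a class IIa histone deacetylase that binds MEF2 and holds it inactive, had 3141 normalized counts in females and 2021 in males, a fold of 1.55 with adjusted p = 5.9e-04 in the authors' deposited table. Hopx, a homeodomain protein that does not bind DNA and restrains SRF, had 992 normalized counts in females and 1863 in males, a log2 fold change of -0.91 with adjusted p = 0.0024 in the authors' deposited table. Hdac2, known in the mouse as a partner of Hopx, had a log2 fold change of -0.41 with adjusted p = 0.0245 in the authors' deposited table. On the cardiomyocyte markers the split was 1 higher and 4 lower, and on the summed counts 3 higher and 1 lower.

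Of 18 kinases and other signalling genes upstream of these factors, 16 were measured and Mapk7 and Map2k3 were listed at 0. None rose and 2 of the 16 fell, a share of calls near the 14.5% over all genes. It was below the 25.0% among the 4665 genes in the mean range of the core factors. The genes that fell were Rock1 and Rock2, whose products act on actin and through it on SRF coactivators. Rock1 had 1634 normalized counts in females and 2672 in males and Rock2 had 5706 and 9973 in the authors' deposited table. Their log2 fold changes were -0.71 and -0.81, with adjusted p = 0.0255 and 0.0307 in the authors' deposited table. The median log2 fold change of the list was 0.047. Rock1 and Rock2 lost their calls on the summed counts, where 1 gene was higher and 0 lower, and when recentred on genes of like span (adjusted p = 0.0783 and 0.0801, from errors implied by the authors' deposited table). On the cardiomyocyte markers 5 genes were lower.

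Known target genes of the factors in myocytes were then counted. Of 30 listed, 29 were measured, 6 rose, none fell and 23 were not called, with a median log2 fold change of 0.13. Over all genes 14.5% were called, 6.71% as higher in females. Among the 4665 genes in the mean range of the core factors these shares were 25.0% and 11.3%. On the cardiomyocyte markers, several of which are on this list too, 3 were higher and 5 lower, and on the summed counts 9 were higher. Corin, a GATA4 target that encodes the protease processing natriuretic peptide, had 5734 normalized counts in females and 3352 in males, a fold of 1.71 with adjusted p = 8.4e-05 in the authors' deposited table. Ckm, the muscle creatine kinase gene with CArG and MEF2 sites, rose 1.51-fold with adjusted p = 0.0195 in the authors' deposited table; it lost its call on the cardiomyocyte markers (0.112) and when recentred on genes of like span (0.0507). Myh6 and Des were also among the targets that rose, by 1.60-fold and 1.58-fold with adjusted p = 1.2e-04 and 0.0021 in the authors' deposited table. Of 18 SRF targets of the immediate early and cytoskeletal kind, 4 rose and none fell, to be set beside the same background shares. The median log2 fold change was 0.34. On the cardiomyocyte markers 4 were higher and 1 lower, and on the summed counts 7 were higher. The 4 that rose are all induced within minutes of stimulation. They were Junb (1.74-fold), Ier2 (1.83-fold), Fos (1.46-fold) and Cyr61 (1.74-fold), with adjusted p = 1.6e-05, 1.0e-04, 0.0026 and 0.0078 in the authors' deposited table. The other 14 were not called, among them the immediate early genes Egr1, Egr2, Egr3 and Fosb, with adjusted p = 0.0747, 0.992, 0.0872 and 0.149 in the authors' deposited table, and actin and smooth muscle genes such as Actb, Actg1, Vcl and Tagln. A difference between the immediate early and the cytoskeletal genes was not tested.

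**Figure D4:**
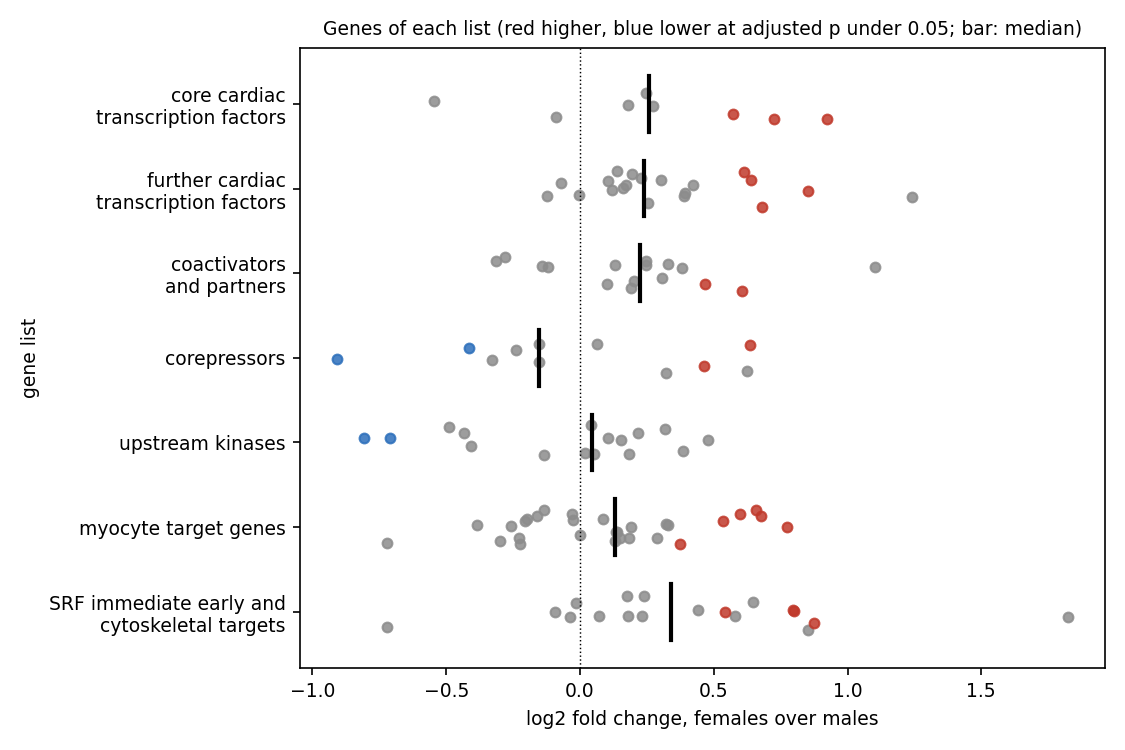
Log2 fold change (females over males) of each measured gene with reads in both sexes, by list; red points are higher and blue points lower at an adjusted p under 0.05, and the bar is the list's median. With the authors' scaling, and beside the 3 core factors, 18 called genes are to the right of 0 and 4 to the left, which were 10 and 18 on the cardiomyocyte markers; those drawn to the left are 2 corepressors and 2 upstream kinases, and uncalled genes lie on both sides of 0 in each list.

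The myocyte preparation was checked with a list of markers for each cell type of the heart, chosen with earlier results of these data known. The calls below are to be set beside those over all genes, 6.71% higher in females and 7.76% lower. Among the 4665 genes in the mean range of the core factors 11.3% were higher and 13.7% lower. The cardiomyocyte markers measured, 9 of 10 listed, summed to 3935819 normalized counts in females and 3286485 in males, with 2 higher and none lower. Without Myh6 the sums were 2604951 in females and 2454714 in males. The 9 fibroblast markers measured, with Col1a2 listed at 0, summed to 9435 in females and 18386 in males, with none higher and 3 lower. Without Col3a1 the sums were 5520 in females and 7663 in males. All 10 endothelial markers were measured and summed to 26996 and 24742 in females and males, with 3 higher and 1 lower. None of the 10 smooth muscle and pericyte markers was called, with sums of 6671 in females and 6467 in males, or 4746 and 3820 without Rgs5. None of the 10 leukocyte markers was called, of which 7 lay below 0 with a median log2 fold change of -0.30. Cd74 made up most of their sums of 13665 in females and 12118 in males, and the other 9 summed to 810 and 993. Of the 10 atrial markers 7 lay above 0 and 1, Stard10, was called higher. Their sums were 39333 in females and 40035 in males, or 5107 and 2639 without Pam. Most of the difference without Pam came from Myl7, the atrial myosin light chain gene, which was picked with its values in view. Myl7 had 2548 normalized counts in females and 287 in males, with adjusted p = 0.427 in the authors' deposited table. Its log2 fold change of 3.15 had an implied standard error of 2.34. Nppa, with 1510 and 1660 in females and males, and Kcna5, with 58.0 and 88.5, lay below 0, as did Pam. Of the 6 epicardial markers measured, 2 were higher. They summed to 1008 in females and 792 in males, or 718 and 436 without Wt1. Gata4, Gata6, Srf and the MEF2 genes are also expressed in nonmyocytes, and the part of these cell types in the differences above was not tested.

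Gene span moved with the sex difference over the whole table. The span of each gene from its first to its last base in RefSeq was known for 98.7% of 9116 genes with a mean of at least 50. Across these genes, which are not independent replicates, the Spearman correlation between span and log2 fold change was -0.22. In the quintile with the shortest genes, up to 8.52 kb, the median log2 fold change was 0.15, and 13.1% of genes were higher and 5.28% lower in females. In the quintile with the longest genes, from 70.7 kb, the median was -0.12, and 6.06% were higher and 14.1% lower. Nkx2-5 spans 6.57 kb and Mef2a 134.7 kb, so the log2 fold change of each had the sign of its quintile's median. Gata4 spans 71.7 kb and Mef2d 29.1 kb, and both were higher in females although the median of their quintiles was below 0. Relative to the median of its own quintile, the log2 fold change was 0.78 for Nkx2-5, 0.69 for Gata4, 0.75 for Mef2d and -0.42 for Mef2a. With all log2 fold changes recentred on the median of their quintile, a step added after the values were seen, Nkx2-5, Gata4 and Mef2d were called higher in females and no factor was called lower.

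**Figure D5:**
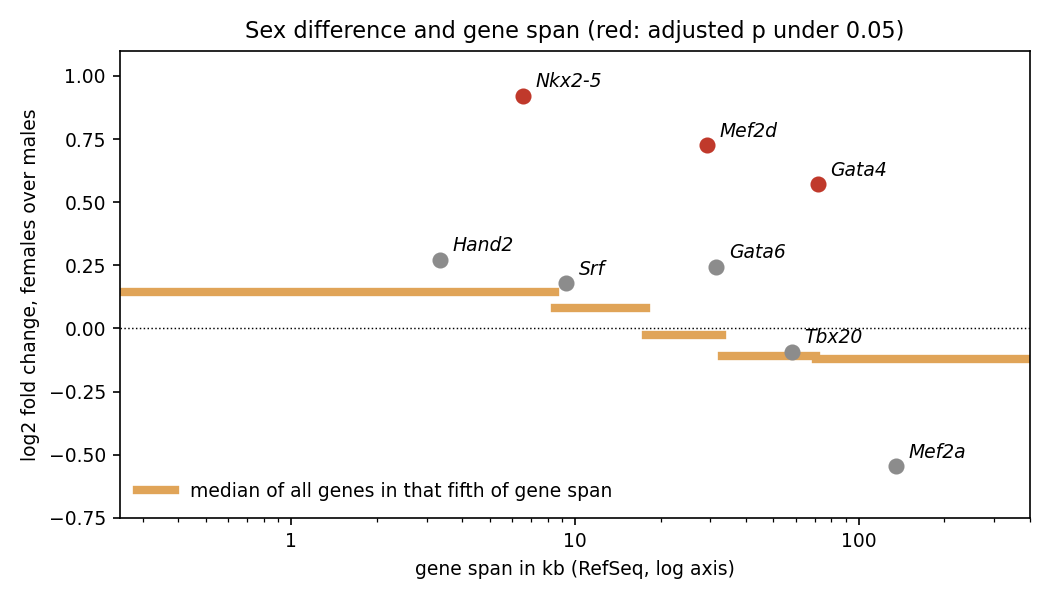
Log2 fold change (females over males) of each measured transcription factor gene against its span in kb in RefSeq (log axis, drawn to 400 kb); orange bars give the median over all genes with a mean of at least 50 in each quintile of gene span, and red points have an adjusted p under 0.05. The medians step down from 0.15 for the shortest to -0.12 for the longest genes, and Nkx2-5, Mef2d and Gata4 lie well above the bar of their quintile.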

How the data were processed

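RNA from isolated ventricular myocytes was depleted of ribosomal RNA and made into paired-end stranded libraries from 650 ng with an integrity number of at least 9, per the labels' protocols. The submitters' processing notes name DESeq, HTSeq 0.6.1, TopHat2 2.0.12, Trimmomatic 0.32 and FastQC and the build rn6, without order or settings. Per the file headers, the authors deposited for each gene a mean normalized signal (counts divided by size factors) over all libraries and over groups A and B, a linear fold ratio, its log2 value, a p-value and an adjusted p-value. The mean over all libraries was 6 parts of A and 5 of B over 11 in all 13346 genes with reads (relative tolerance 1e-09), and with the parts exchanged in 0, so A was read as male and B as female. The deposited adjusted p matched a Benjamini-Hochberg adjustment over these genes. It was used as deposited, since reads per library could not be recovered at these means.

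The genes and all lists were chosen with earlier results of these data known. Named were the 8 factors and, in each of 6 lists, up to 5 called genes, taken by p among those whose mean reached 10; some genes that met this rule are not reported here. Standard errors were implied from the authors' p-values, and reads per group were estimated as the mean times the summed size factors. In the recentrings, a gene with a p above 0.5 took a median implied error instead. This median was taken over 201 genes nearest in mean whose p was not above 0.5. Promoters and gene spans came from RefSeq GRCr8 and were matched by symbol or older symbol. Adjustment and size factor recovery were tested on simulated data. Work used Python 3.11.15, pandas 2.3.3 and scipy 1.17.1.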

Additional observations from a re-analysis of the deposited data

How the results depend on the processing

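Nkx2-5, Gata4 and Mef2d remained higher in females and past the threshold under every alternative run, with adjusted p-values no higher than 0.0222, 0.0334 and 0.0017. The alternatives were adjustment over genes with a mean of at least 10 or 50, Benjamini-Yekutieli adjustment, thresholds of 0.01 and 0.1, a pseudocount of 1 and 4 recentrings, of which the one on gene span was chosen after seeing the data. Several of these could hardly undo a call of higher. The pseudocount left the adjusted p as deposited, and a threshold of 0.1 only loosened the rule. The summed counts raised every log2 fold change, and the median of genes with a mean of at least 50 barely moved it. Adjustment over genes with a mean of at least 10 or 50 lowered the adjusted p of each factor. The harder alternatives were Benjamini-Yekutieli adjustment, the threshold of 0.01, the cardiomyocyte markers and, for Nkx2-5, gene span. Recentring on the cardiomyocyte markers moved the median of genes with a mean of at least 50 to -0.19 (log2). Recentring on the summed counts moved it to 0.15. Mef2a became the 1 factor called lower at a threshold of 0.1 and after recentring on cardiomyocyte markers, where its log2 fold change was -0.73 and its adjusted p 0.0129 (from the p recomputed with the error implied by the authors' deposited table). Values near 0 changed sign: Srf to -0.0046 on cardiomyocyte markers, and Tbx20 to 0.058 on summed counts and 0.019 on gene span. Of the listed further transcription factors, cofactors, kinases and targets, 18 were higher and 4 lower in the main comparison. The higher count was 10 with Benjamini-Yekutieli, 11 at 0.01, 10 on cardiomyocyte markers and 31 on summed counts. The lower count was 1, 1, 18 and 1 in these, and 7 at a threshold of 0.1. The causes of these shifts in the counts beyond the recentring or stricter rule itself were not tested. Leaving out a library was not run, since the table holds group means. No paired analysis was possible because the columns carry no replicate numbers.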

Other observations

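The nearest measured genes beside the 8 factors, by order in RefSeq, were looked at for a shared regional difference. Of 16 such neighbours, 3 were called, 1 higher and 2 lower in females. Over all genes 14.5% were called, and 25.0% among the 4665 genes in the mean range of the factors. Beside Nkx2-5, Stc2 had 834 normalized counts in females and 690 in males and Bnip1 had 2103 and 1861, with adjusted p = 0.339 and 0.497 in the authors' deposited table. Neil2 beside Gata4 had 41.1 and 22.5 with adjusted p = 0.212, and Iqgap3 beside Mef2d had 28.9 and 53.3 with adjusted p = 0.325 in the authors' deposited table. Blk and Rhbg, the nearest measured genes on the other sides of Gata4 and Mef2d at 3 and 5 RefSeq genes away, had no reads in females and male means of 0.952 and 1.06, too few for a call. Neil2 and Iqgap3 had low means too, so that a shared regional difference beside Gata4 or Mef2d could not be judged. Cul9, the nearest measured gene after Srf, was higher in females, with 588 and 343 normalized counts in females and males with adjusted p = 0.0012 in the authors' deposited table. Rbbp8, 5 RefSeq genes from Gata6, and Hmgb2, 8 from Hand2, were lower, with log2 fold changes of -0.92 and -0.80 with adjusted p = 0.0040 and 0.0016 in the authors' deposited table. Cul9, Rbbp8 and Hmgb2 were chosen for mention after their values were seen.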
